A study of Mus musculus with 6 samples.

Results

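The genes described here are Bcl11a and Bcl11b, a pair of zinc-finger transcription factors, and 8 genes for subunits of the BAF chromatin remodelling complex: Actl6a, Actl6b, Smarca2, Smarca4, Smarcd3, Dpf1, Dpf2 and Arid1a. These 10 genes were found by symbol among the 49585 genes of the deposited tables. Bcl11a was picked because it was almost lost in this very comparison, so its values are given as a description with no test. The other 9 were listed for their family or complex, with earlier results of these data known. RNA was measured by poly(A)-selected, stranded sequencing in mGB2, a mouse cell line labelled as glioblastoma stem cells, with 3 libraries of genotype Bcat1-KO and 3 of genotype Control. Both groups were untreated and were cultured attached to a matrix coating in serum-free medium containing N2, B27, EGF and FGF. Bcat1 encodes the cytosolic branched-chain amino acid aminotransferase. The labels do not say how the gene was disrupted, whether the knockout cells are a clone or a pool, or whether replicates were separate cultures, so the p-values reflect only how these samples vary, and that variation may be technical.

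BAF, the mammalian SWI/SNF complex, uses the energy of ATP to move or eject nucleosomes. It is built from sets of paralogues that fill the same position, and its makeup changes as neural progenitors leave the cell cycle: Actl6a (BAF53a) gives way to Actl6b (BAF53b), Ss18 to Ss18l1, and Phf10 and Dpf2 to Dpf1 and Dpf3. Bcl11a (Ctip1) and Bcl11b (Ctip2) bind DNA and act mostly as repressors. They are known as BAF-associated proteins and as partners of the NuRD corepressor, and they shape cortical and striatal neurons as well as blood cells.

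The libraries held 29543157 to 37800648 counts of reads in the sense of the gene, so 3 counts, taken here as the limit of detection, correspond to 0.0794 to 0.102 counts per 1000000 counts of their library (CPM). All other CPM are also scaled for library composition. Of 14020 genes tested, 62.3% passed at an adjusted p under 0.05 (quasi-likelihood test of edgeR, Benjamini-Hochberg), with 32.0% higher and 30.3% lower in the knockout, and the groups did not overlap for 67.7%. Bcat1 itself was at 168 ± 11.5 CPM in knockout and 223 ± 9.26 CPM in control libraries (SD, n = 3 per group), so its transcript was still present. Of 8 neural and glioma stem markers, Sox2, Olig2, Nes and Vim were above 100 CPM on average in both groups. Fabp7 was at 188 ± 3.54 CPM in knockout and 6.26 ± 1.10 CPM in control libraries, Pax6 at 55.7 and 46.6, and Gfap at 1.93 and 0.807. Prom1 had 29, 32 and 31 counts in knockout libraries and 0 in each control library. Of the 8, 7 passed as higher in the knockout and Nes did not pass. The list summed to 2120 to 2305 CPM in knockout libraries and 1356 to 1441 CPM in the control. The 8 neuron markers summed to 411 to 456 and 216 to 233 CPM, mostly Map2, while Stmn2 and Nefl had 0 counts. Bcl11a is also a gene of B cells and plasmacytoid dendritic cells. The 6 lymphoid and dendritic markers each stayed under 1 CPM in every library and summed to at most 0.331 CPM, with Ms4a1 and Siglech at 0. The microglia and endothelial markers were likewise all under 1 CPM. The 4 fibroblast markers summed to 4.13 to 5.82 CPM in knockout libraries and 17.1 to 18.8 CPM in the control, mostly Col1a1, with the other 3 under 1 CPM. The part of these marker differences in the results was not tested.

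The start regions of both Bcl11 genes, which fell together, and of the Actl6 pair, of which 1 gene was on and the other off, are shown because these pairs differ in what their 2 genes did. Each is 300 bases, from 250 before to 50 after the RefSeq start in GRCm38.p6, 5′ to 3′ on the gene's own strand, with CpG dinucleotides in capitals. In the deposited coordinates Bcl11a starts at 24078056 and Actl6a at 32706298, upstream of their windows. The windows therefore cover the RefSeq start only.
Bcl11a, chr11:24080445-24080744, plus strand: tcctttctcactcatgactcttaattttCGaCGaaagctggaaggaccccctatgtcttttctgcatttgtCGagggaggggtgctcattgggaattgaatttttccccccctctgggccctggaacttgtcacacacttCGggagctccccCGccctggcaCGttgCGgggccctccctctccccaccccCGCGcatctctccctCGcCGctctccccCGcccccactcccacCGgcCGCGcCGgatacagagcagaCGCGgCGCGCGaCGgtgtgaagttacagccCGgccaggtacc
Bcl11b, chr12:108003365-108003664, minus strand: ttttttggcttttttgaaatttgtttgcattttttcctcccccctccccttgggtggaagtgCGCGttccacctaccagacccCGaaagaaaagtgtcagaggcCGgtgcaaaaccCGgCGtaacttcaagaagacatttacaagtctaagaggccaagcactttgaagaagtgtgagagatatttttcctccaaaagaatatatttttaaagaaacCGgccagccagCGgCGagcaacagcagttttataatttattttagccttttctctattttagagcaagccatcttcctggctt
Actl6a, chr3:32708296-32708595, plus strand: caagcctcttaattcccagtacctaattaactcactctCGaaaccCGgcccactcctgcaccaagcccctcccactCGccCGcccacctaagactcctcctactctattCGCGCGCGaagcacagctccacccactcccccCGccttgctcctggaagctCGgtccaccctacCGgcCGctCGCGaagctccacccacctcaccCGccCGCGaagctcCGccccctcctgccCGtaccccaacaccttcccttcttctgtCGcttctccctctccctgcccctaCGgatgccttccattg
Actl6b, chr5:137553296-137553595, plus strand: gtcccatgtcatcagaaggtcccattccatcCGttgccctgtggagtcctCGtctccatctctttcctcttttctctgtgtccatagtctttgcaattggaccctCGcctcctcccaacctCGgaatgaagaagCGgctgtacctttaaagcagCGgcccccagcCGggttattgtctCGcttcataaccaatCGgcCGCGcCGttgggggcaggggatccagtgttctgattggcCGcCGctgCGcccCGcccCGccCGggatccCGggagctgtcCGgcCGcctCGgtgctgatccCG

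The Bcl11a window held 23 CpG dinucleotides and the Bcl11b window 9, with a G and C content of 63.0% and 43.0%. The Actl6a window held 21 and the Actl6b window 23. Over 32851 RefSeq windows of this length the median was 7 CpG (quartiles 3 and 20). All 10 genes had a window, and the other 6 held 20 to 40. The letters GGGCGG, the GC box, were searched on both strands and counted without overlapping copies. They stood 2 times in the Bcl11a window, 0 times in that of Bcl11b and 3 times in that of Actl6a. In that of Actl6b they stood once, with a second copy that overlaps it and was not counted. Of all windows 35.7% held them. The letters CACGTG, an E-box that Myc family proteins bind, were in none of these 4, nor in those of the other 6 genes, and in 7.15% of all windows. The Actl6 pair had nearly the same CpG count and the Bcl11 pair different counts. Whether these counts bear on the expression of the genes was not tested.

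Bcl11a (ENSMUSG00000000861.15, chromosome 11 from 24078056 to 24174123 in mm10) had 780, 733 and 641 counts in the control libraries, or 24.8, 22.1 and 22.1 CPM. The knockout libraries held 2, 0 and 0 counts. Of all knockout reads at the gene, both lay in 1 library, below the limit of detection. Scaled for depth, the ratio of control to knockout was 1275, with an exact 95% interval of 353 to 10535 from the 2154 and 2 counts summed over each group, which covers counting error only. In bulk RNA, fewer cells with a transcript and less of it per cell cannot be told apart. Reads against the sense of the gene were 2, 1 and 3 in the control and 0 in each knockout library.

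Bcl11b (ENSMUSG00000048251.15, chromosome 12 from 107910403 to 108003602), the paralogue best known from T cells and from deep-layer and striatal neurons, fell as well but was not lost. It had 12.4, 12.4 and 15.04 CPM in the control libraries and 1.88, 2.16 and 2.34 CPM in the knockout libraries. Every knockout library lay far below every control library, and the libraries of a group lay close together. The log2 ratio of knockout to control was -2.64 (SE 0.14, edgeR adjusted p = 1.76e-08), or 6.23-fold lower, and it was -1.73 with limma-trend on log2(TPM + 1), a scale that understates changes of low genes. Bcl11b lies among genes that were mostly lower, and its log2 ratio was -2.19 once the local median of 51 neighbouring genes was subtracted. Per kilobase of exon, the control level was 1.74 ± 0.120 CPM for Bcl11a and 1.64 ± 0.187 CPM for Bcl11b (mean ± SD, n = 3), within their spread of each other. In the knockout Bcl11b was at 0.262 ± 0.0282 CPM per kilobase, and the pair together went from 3.38 ± 0.163 to 0.264 ± 0.0260.

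**Figure D1:**
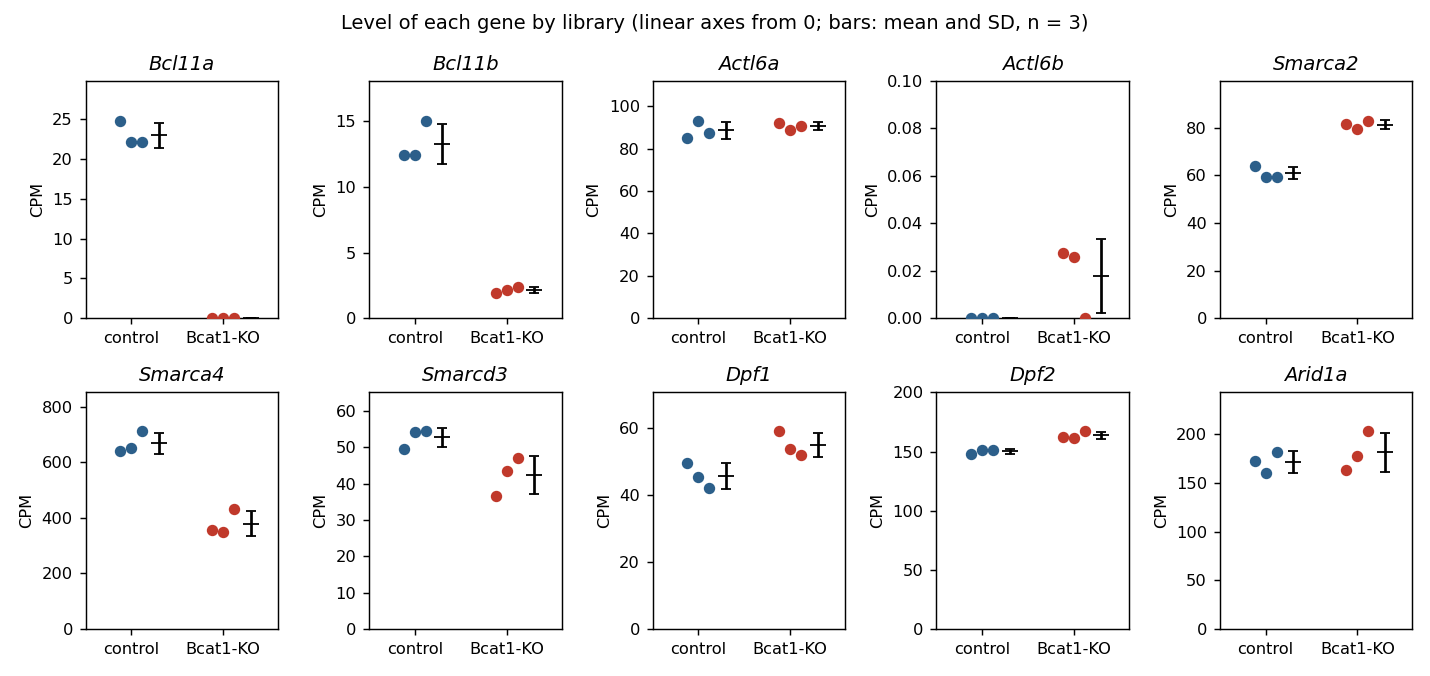
Level of each of the 10 genes in CPM (vertical, linear, each panel with its own scale from 0) in the 3 control (blue) and 3 Bcat1-KO (red) libraries, with the mean and SD (black) beside the points. Bcl11a and Bcl11b show the widest gaps, Smarca4 is clearly lower and Smarca2 higher in the knockout, and Actl6a and Arid1a overlap between groups; the Actl6b panel spans only 0 to 0.1 CPM, since its knockout points are 1, 1 and 0 counts.

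None of the 3 nearest tested genes on either side of Bcl11a passed as lower. On the lower-coordinate side, Papolg, a poly(A) polymerase gene, had 21.99 ± 0.587 CPM in knockout and 23.2 ± 0.67 CPM in control libraries (edgeR adjusted p = 0.378). Rel, an NF-kappaB subunit gene, had 12.03 ± 1.13 and 14.2 ± 1.03 CPM (edgeR adjusted p = 0.0767, or 0.0155 without Bcat1-KO replicate 1). Pus10, a pseudouridine synthase gene, rose from 89.6 ± 1.56 to 102 ± 7.88 CPM (edgeR adjusted p = 0.0392), a call that was lost in 8 of 14 alternative tests, with adjusted p-values up to 0.164. On the other side Fancl, a ubiquitin ligase gene of DNA crosslink repair, rose from 11.5 ± 1.18 to 16.7 ± 1.38 CPM (log2 ratio 0.54, edgeR adjusted p = 0.00112), while Vrk2, a kinase gene, and the predicted gene Gm6685 did not pass (edgeR adjusted p = 0.158 and 0.876). Over the 50 tested genes closest in order, 25 on each side, which span from -3.78 to 8.13 Mb around the start of Bcl11a, the median log2 ratio was 0.08, with 18 higher and 8 lower, or 52.0% called against 62.3% of all genes.

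**Figure D2:**
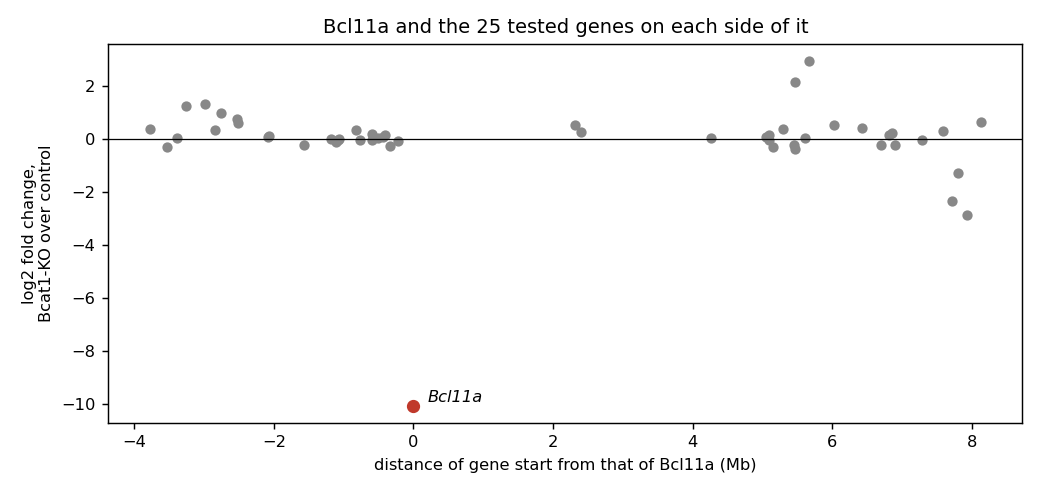
Log2 fold change of Bcl11a (red) and of the 25 tested genes on each side of it (grey) against the distance between gene starts in Mb. Bcl11a lies alone at the bottom, the next lowest gene being Nsg2 at -2.84; the fitted value of a gene with 2 knockout counts depends on the fitting and is not a measured size.

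Of the 9 genes not picked by value, 8 passed the filter on low counts, and 5 of the 8 (62.5%) passed the test, 2 higher and 3 lower, against 62.3% of all tested genes. Apart from Bcl11b no change among them reached 2-fold. Their median log2 ratio was 0.06, against 0.01 over all genes. Without overlap between groups, 3 were lower and 3 higher, where 32.5% and 35.1% of all tested genes were. The share called was thus at the background.

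Smarca4 (BRG1; chromosome 9 from 21616169 to 21704230) and Smarca2 (BRM; chromosome 19 from 26605050 to 26778322) encode the alternative ATPases, 1 of which drives each BAF complex, and moved in opposite directions. Smarca4 had 641, 650 and 711 CPM in the control libraries and 357, 349 and 430 CPM in the knockout libraries. It fell by 0.82 on the log2 scale (SE 0.09, edgeR adjusted p = 1.05e-05), and the groups lay well apart although Bcat1-KO replicate 3 was higher than the other 2. Smarca2 had 63.9, 59.4 and 59.5 CPM in control libraries and 81.3, 79.5 and 83.0 CPM in the knockout, again without overlap. It rose by 0.42 (SE 0.06, edgeR adjusted p = 0.000116). Smarca2 lies among genes that were mostly higher, and its log2 ratio was 0.15 once the local median of 51 neighbouring genes was subtracted, while that of Smarca4 was -0.84.

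Smarca4 remained the main ATPase transcript in both groups. Per kilobase of exon it was at 103 ± 5.89 CPM in control libraries and 58.5 ± 6.87 CPM in the knockout, against 4.27 ± 0.182 and 5.70 ± 0.123 CPM for Smarca2. The length-scaled ratio of Smarca4 to Smarca2 within a library was 22.1, 24.1 and 26.3 in the control and 9.67, 9.69 and 11.4 in the knockout. The share of Smarca2 in the pair therefore went from 3.99% ± 0.337 to 8.93% ± 0.758 (SD, n = 3), and the sum of the pair from 107 ± 5.79 to 64.2 ± 6.98 CPM per kilobase. The scaling of libraries cancels in the ratio and the share but not in the sum. The 2 groups did not overlap in any of them.

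Actl6a and Actl6b encode the actin-related subunit whose exchange marks the step from progenitor to neuronal BAF. Actl6a (chromosome 3 from 32706298 to 32726973) had 85.3, 93.3 and 87.4 CPM in control libraries and 92.3, 88.7 and 90.8 CPM in the knockout. The groups overlapped, and the log2 ratio was 0.03 (SE 0.06, edgeR adjusted p = 0.677). Actl6b (chromosome 5 from 137553517 to 137569582) had 0 counts in each control library and 1, 1 and 0 counts in the knockout libraries, under the 3 counts taken as the limit, so no fold is given. Actl6a thus supplied 99.97% to 100% of the length-scaled reads of the pair in every library. The neuronal paralogue was not detected at this depth in either group. Of the 5 neuron markers tested, Map2, Syt1 and Syn1 were higher in the knockout (log2 ratios 1.22, 0.86 and 1.19), Rbfox3 was lower (33.1 ± 0.667 CPM in control and 0.0719 ± 0.0415 CPM in knockout libraries) and Tubb3 did not pass (edgeR adjusted p = 0.0908).

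Smarcd3 (BAF60c; chromosome 5 from 24590818 to 24624411) is 1 of 3 alternative BAF60 subunits, which link the complex to transcription factors. It had 49.7, 54.2 and 54.5 CPM in control libraries and 36.7, 43.6 and 47.0 CPM in the knockout. The lowest control library lay just above the highest knockout library. The log2 ratio was -0.31 (SE 0.09, edgeR adjusted p = 0.00975), and the call was lost with limma-trend on TPM (adjusted p = 0.0573, with values from 0.000354 to 0.0573 over the alternatives). After subtracting the median of 51 neighbours the log2 ratio was -0.47. Smarcd3 overlaps Chpf2 on the other strand by 3739 bases, and Chpf2 also had fewer counts in each knockout library (1420 to 1566) than in each control library (1780 to 2267).

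Its paralogues moved further, and in opposite directions. Smarcd1 (BAF60a; chromosome 15 from 99702287 to 99713995) had 81.4, 80.4 and 83.6 CPM in control libraries and 149, 166 and 179 CPM in the knockout, a log2 ratio of 1.01 (SE 0.08, edgeR adjusted p = 3.15e-07), or 0.87 after subtracting the median of 51 neighbours. Smarcd2 (BAF60b; chromosome 11 from 106263179 to 106272972), known from blood cell development, had 84.2, 81.2 and 88.7 CPM in control libraries and 45.8, 50.3 and 53.7 CPM in the knockout (log2 ratio -0.76, SE 0.07, edgeR adjusted p = 2.99e-06). In the control Smarcd1 and Smarcd2 had similar shares of the length-scaled BAF60 reads, 43.4% ± 0.455 and 39.4% ± 0.782, with 17.2% ± 0.793 for Smarcd3. In the knockout Smarcd1 took 70.1% ± 0.142, Smarcd2 18.7% ± 0.295 and Smarcd3 11.1% ± 0.383. Knockout libraries differed from each other by less than 1 percentage point in each share, and no share overlapped between groups.

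**Figure D3:**
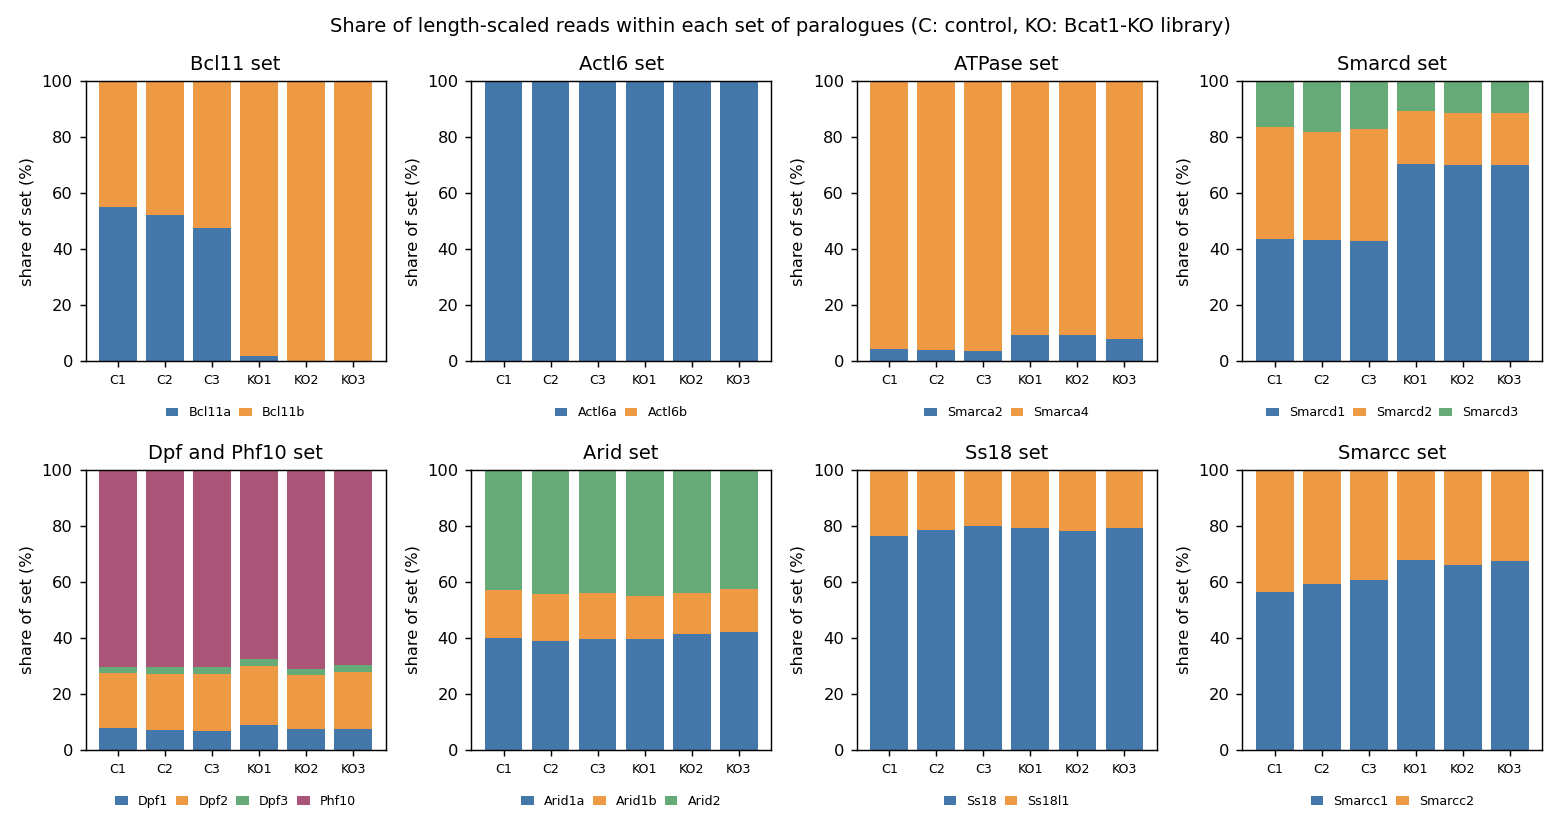
Share (%) of length-scaled reads taken by each gene within 8 sets of paralogues, 1 stacked bar for each library (C1 to C3 control, KO1 to KO3 Bcat1-KO). The bars change between groups in the Bcl11, ATPase, Smarcd and Smarcc sets, where Smarcd1 goes from 43.4% to 70.1%, and look alike in the Actl6, Dpf and Phf10, Arid and Ss18 sets.

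Dpf1 and Dpf2 encode PHD-finger subunits that read histone tails, Dpf1 (BAF45b) being the neuronal form and Dpf2 (BAF45d) the broadly expressed one. Dpf1 (chromosome 7 from 29303951 to 29318243) had 49.6, 45.5 and 42.1 CPM in control libraries and 59.1, 53.7 and 52.2 CPM in the knockout. The groups did not overlap but lay near each other, and Dpf1 rose by 0.27 (SE 0.08, edgeR adjusted p = 0.0117). It did not pass without control replicate 2 (adjusted p = 0.0508) or control replicate 3 (adjusted p = 0.079). Dpf2 (chromosome 19 from 5896516 to 5913010) had 148, 152 and 151 CPM in control libraries and 163, 162 and 167 CPM in the knockout. These groups did not overlap either, but the difference of 0.13 on the log2 scale did not pass (SE 0.06, edgeR adjusted p = 0.0845), except with limma-trend on TPM (adjusted p = 0.015, with values from 0.015 to 0.266 over the alternatives).

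Within the set of Dpf1, Dpf2, Dpf3 and Phf10 the shares stayed close. Phf10, which belongs to the polybromo form of BAF and to progenitors, led with 70.4% ± 0.0136 in the control and 69.5% ± 1.86 in the knockout. Dpf2 had 19.9% ± 0.462 and 19.97% ± 0.855, Dpf1 7.31% ± 0.533 and 8.12% ± 0.863, and Dpf3 2.43% ± 0.159 and 2.39% ± 0.304. All 4 shares overlapped between groups. Ss18l1 (CREST), the neuronal paralogue of Ss18, also kept its share of that pair, with 21.8% ± 1.63 in the control and 21.1% ± 0.571 in the knockout.

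Arid1a (BAF250a; chromosome 4 from 133679008 to 133756769) encodes the large subunit of canonical BAF that is often mutated in tumours. It had 173, 160 and 182 CPM in control libraries and 164, 177 and 203 CPM in the knockout, with wide overlap (log2 ratio 0.08, SE 0.09, edgeR adjusted p = 0.433). Its paralogues Arid1b and Arid2, the latter of the polybromo form, did not pass either (edgeR adjusted p = 0.169 and 0.722), although Arid1b did without Bcat1-KO replicate 3 (adjusted p = 0.0288). Within the Arid set Arid1b went from 16.7% ± 0.227 to 15.04% ± 0.368 with no overlap between groups.

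The other 20 BAF subunits measured passed at the rate of the background, with 5 higher and 7 lower (60.0% of 20), and a median log2 ratio of 0.05. The subunits that fell most, besides those already described, belong to the polybromo form. Brd7, a bromodomain subunit, had 230, 244 and 236 CPM in control libraries and 104, 122 and 118 CPM in the knockout (log2 ratio -1.04, SE 0.07, edgeR adjusted p = 1.92e-07). Pbrm1, polybromo itself, had 202, 196 and 221 CPM and 112, 120 and 126 CPM (log2 ratio -0.79, SE 0.07, edgeR adjusted p = 1.93e-06). Both lie among genes that were mostly lower, and after subtracting the median of 51 neighbours they were at -0.65 and -0.41. Of the other 2 polybromo-specific subunits, Arid2 and Phf10, neither passed (edgeR adjusted p = 0.722 and 0.225).

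Bcl7a and Bcl7c, small accessory subunits, both rose, Bcl7a from 84.7 ± 7.83 to 121 ± 10.4 CPM and Bcl7c from 63.6 ± 3.81 to 102 ± 3.28 (log2 ratios 0.52 and 0.68, edgeR adjusted p = 0.000208 and 3.38e-06), whereas Bcl7b had 36.1 ± 1.03 and 38.0 ± 5.15 CPM (adjusted p = 0.517). Gltscr1l, a subunit of the non-canonical form, fell from 38.2 ± 1.93 to 30.9 ± 1.17 CPM (log2 ratio -0.31, edgeR adjusted p = 0.00285). Smarcb1 (SNF5), a core subunit lost in rhabdoid tumours, fell from 163 ± 12.4 to 131 ± 2.99 CPM (log2 ratio -0.31, edgeR adjusted p = 0.00205), but after subtracting the median of 51 neighbours its value was 0.18. In the scaffold pair Smarcc1 (BAF155) took 58.8% ± 2.23 of the length-scaled reads in the control and 67.1% ± 0.876 in the knockout, and Smarcc2 (BAF170) the rest, with no overlap.

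**Figure D4:**
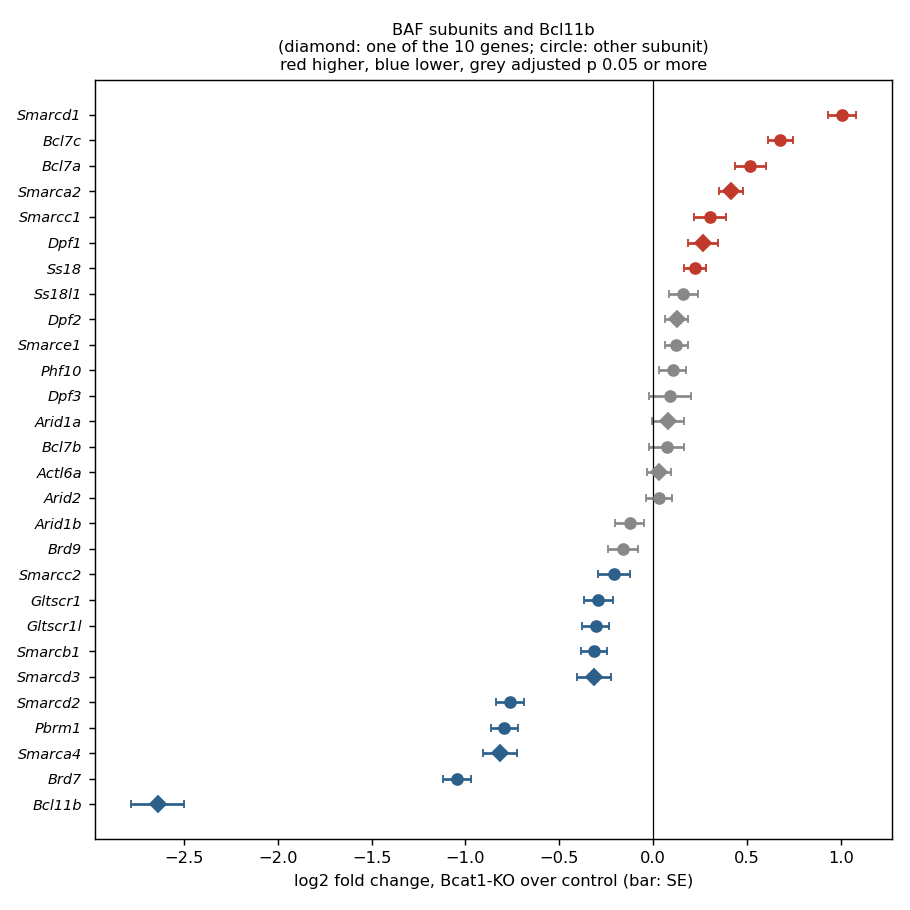
Log2 fold change of knockout over control with its SE (horizontal) for Bcl11b, the 7 tested BAF subunits among the 10 genes (diamonds) and the other 20 subunits (circles); red passed as higher, blue as lower, grey did not pass. Bcl11b at -2.64 stands apart, and the subunits lie between -1.04 (Brd7) and 1.01 (Smarcd1).

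NuRD is the deacetylase and remodelling complex that Bcl11 factors recruit. Of its 14 genes 4 were higher and 4 lower, or 57.1% against 62.3% of all genes, and the median log2 ratio was 0.09. Chd3, 1 of 3 alternative ATPases of NuRD, had 235, 206 and 222 CPM in control libraries and 3.91, 6.60 and 7.15 CPM in the knockout, a 37.5-fold difference (log2 ratio -5.23, SE 0.16, edgeR adjusted p = 1.67e-10). Chd4, the main ATPase, had 532 ± 34.6 CPM in control libraries and 562 ± 36.4 CPM in the knockout (edgeR adjusted p = 0.395), and Chd5, a neuronal one, rose from 4.03 ± 0.557 to 5.89 ± 0.510 CPM (edgeR adjusted p = 0.00664). Chd3 fell without a like change of its paralogues.

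Among the Mta subunits, which hold the deacetylases, Mta3 had 6.01, 6.93 and 6.09 CPM in control libraries and 50.2, 49.95 and 51.4 CPM in the knockout (log2 ratio 2.99, SE 0.08, edgeR adjusted p = 7.12e-11). Mta1 fell from 352 ± 21.3 to 253 ± 14.7 CPM (log2 ratio -0.48, edgeR adjusted p = 0.000149), or -0.23 after subtracting the median of 51 neighbours. Mta2 had 284 ± 8.44 and 304 ± 18.4 CPM (edgeR adjusted p = 0.23). The deacetylase genes Hdac1 and Hdac2 did not pass (edgeR adjusted p = 0.101 and 0.104).

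**Figure D5:**
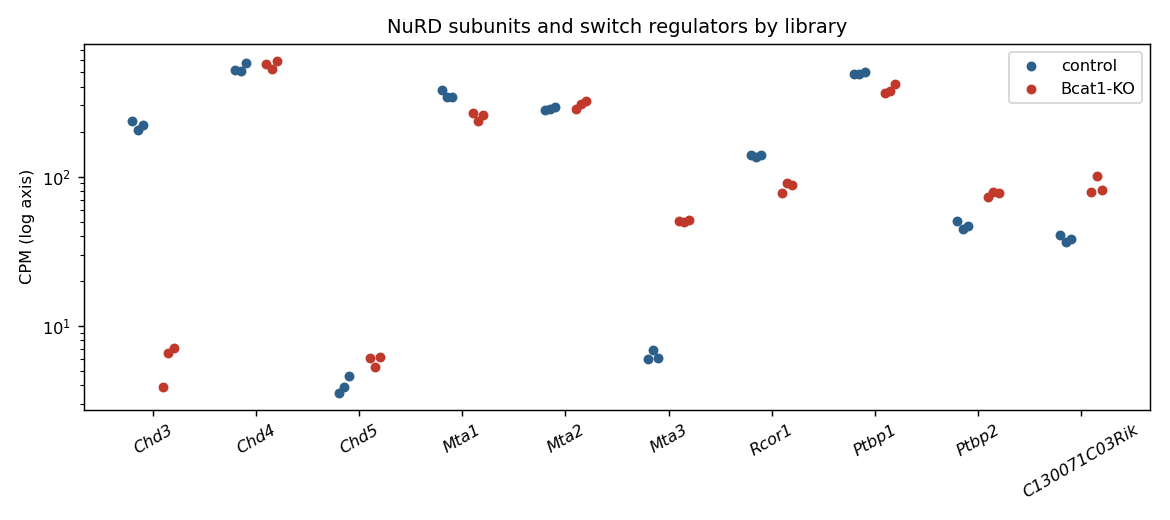
CPM (vertical, log axis) of NuRD ATPase and Mta genes and of regulators of the progenitor-to-neuronal BAF exchange in each control (blue) and Bcat1-KO (red) library. Chd3 drops from above 200 to below 10 CPM, Mta3 rises from about 6 to about 50 CPM, and Chd4 and Mta2 stay level.

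Actl6a is shared with the INO80, SRCAP and TIP60 complexes. Of 12 of their other subunits 2 were higher and 4 lower, or 50% against 62.3% of all genes, and their median log2 ratio was -0.06. Srcap, the ATPase that loads the histone variant H2A.Z, rose from 12.6 ± 0.728 to 20.9 ± 1.63 CPM (log2 ratio 0.73, edgeR adjusted p = 4.11e-05). The INO80 subunit genes Actr8 and Actr5 fell (log2 ratios -0.42 and -0.33, edgeR adjusted p = 0.00099 and 0.0104), and that of Actr8 was 0.00 after subtracting the median of 51 neighbours. Trrap, a scaffold of TIP60, fell from 200 ± 12.9 to 167 ± 14.2 CPM (edgeR adjusted p = 0.013), but not with limma-trend on TPM (adjusted p = 0.0755).

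The exchange of Actl6a for Actl6b in neurons is held back by REST and its corepressor and is brought about by miR-9-3p (miR-9*) and miR-124, which act on the Actl6a transcript. The host transcript C130071C03Rik contains a copy of miR-9 in the table's coordinates (chr13:83738858-83738879, RefSeq, GRCm38.p6), and the mature sequence is printed with its seed, bases 2 to 8, in capitals, because it is the arm reported to act on Actl6a.
miR-9-3p: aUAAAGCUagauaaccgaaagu

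C130071C03Rik rose from 38.5 ± 2.09 to 87.1 ± 11.8 CPM (log2 ratio 1.18, SE 0.09, edgeR adjusted p = 5.69e-07). Mir9-3hg, another miR-9 host transcript, rose from 0.107 ± 0.0730 to 1.15 ± 0.217 CPM (edgeR adjusted p = 1.66e-05). Poly(A) libraries count the host transcript, not the mature miRNA. The miR-124 hosts Mir124a-1hg and Mir124-2hg had at most 3 counts over a group. Rest had 63.8 ± 5.09 CPM in control libraries and 59.0 ± 1.32 CPM in the knockout (edgeR adjusted p = 0.192). Its corepressor gene Rcor1 fell from 138 ± 2.11 to 85.2 ± 6.55 CPM (log2 ratio -0.69, edgeR adjusted p = 4.31e-06), or -0.24 after subtracting the median of 51 neighbours. Ptbp2, the neuronal splicing repressor, rose from 47.2 ± 2.70 to 76.3 ± 2.79 CPM (log2 ratio 0.69, edgeR adjusted p = 3.38e-06). Ptbp1, its counterpart outside neurons, fell from 491 ± 8.93 to 384 ± 26.6 CPM (log2 ratio -0.35, edgeR adjusted p = 0.00115), and was at 0.08 with the local median removed. In all 3 were higher and 2 lower of 6 tested in this list of 8 (83.3%, against 62.3%), while Actl6a itself overlapped between groups.

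Bcl11 factors are also named for binding COUP-TF nuclear receptors. In a list of 20 transcription factors of cortical neurons, 14 were tested, with 7 higher and 4 lower (78.6%, against 62.3%). Nr2f2 (COUP-TFII) had 35.0, 35.6 and 35.8 CPM in control libraries and 94.2, 85.1 and 90.3 CPM in the knockout (log2 ratio 1.34, SE 0.07, edgeR adjusted p = 6.87e-09), or 1.19 after subtracting the median of 51 neighbours. Its paralogue Nr2f1 (COUP-TFI) rose less, from 44.7 ± 2.84 to 60.1 ± 2.32 CPM (log2 ratio 0.43, edgeR adjusted p = 0.000238). The cofactor gene Lmo4 rose from 31.5 ± 1.18 to 106 ± 5.204 CPM (log2 ratio 1.75, edgeR adjusted p = 9.06e-10), or 1.36 after subtracting the median of 51 neighbours. Pou3f2 (Brn2), a POU factor of upper layers and of glioblastoma stem cells, went from 18.0, 18.9 and 16.4 CPM in the control to 1.52, 1.85 and 1.84 CPM in the knockout (log2 ratio -3.35, SE 0.13, edgeR adjusted p = 1.03e-09), and the corepressor gene Tle4 fell from 38.9 ± 1.61 to 19.7 ± 2.51 CPM (log2 ratio -0.98, edgeR adjusted p = 2.95e-06). Fezf2, Neurod2, Neurod6 and Bhlhe22 had 0 counts in every library. Near the limit of detection in the control, 2 of the 7 higher genes had few counts. Neurod1 had 0 in each control library and 21, 21 and 31 in the knockout libraries. Foxp2 had 1, 4 and 1 in the control and 19, 21 and 25 in the knockout.

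Genes that Bcl11a is reported to repress in other cells were mostly off in both groups. The embryonic globin genes Hbb-y and Hbb-bh1 had 0 counts throughout and Hba-x had 1 count in all. Sema3c, a guidance gene repressed by Bcl11a in cortical neurons, was at 0.130 ± 0.0611 CPM in control libraries and 0.108 ± 0.0459 CPM in knockout libraries and was not tested. Bcl6 had 18.3, 19.5 and 18.6 CPM in control libraries and 23.5, 21.7 and 20.5 CPM in the knockout. Its log2 ratio of 0.22 passed narrowly (SE 0.08, edgeR adjusted p = 0.0398) and was lost in 10 of 14 alternative tests, with adjusted p-values from 0.0271 to 0.132.

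Bcl11a was compared with 9919 genes whose mean log2 CPM was 2 or more, leaving out pseudogenes and genes with Gm-number or Rik names. Those whose log2 CPM followed it most closely over the 6 libraries were Sf3b3, a splicing factor gene, Pou3f4, a POU factor gene, and the homeobox gene Prrx2. Their Pearson r was 0.99997, 0.9997 and 0.9997. As the libraries fall into 2 groups, such a value mainly shows a clean step between groups, and 398 genes had an r over 0.99. Sf3b3 stepped from 249 ± 0.603 to 190 ± 3.25 CPM, Pou3f4 from 14.1 ± 0.131 to 2.65 ± 0.254 CPM and Prrx2 from 28.2 ± 0.646 to 1.13 ± 0.250 CPM, so that the steps differed widely in size.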

How the data were processed

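Poly(A) RNA of 6 libraries (3 Bcat1-KO, 3 control) was prepared with a stranded kit, per the labels' protocols. The submitters' processing notes name STAR 2.5.3a, featureCounts and mm10 for alignment and counting, and no annotation release. The deposited counts are raw reads per gene, and those on the reverse strand (96.4% to 96.5% of stranded reads), the sense strand for this kit, were used. The authors' deposited TPM values, scaled to a fixed sum per library, served as an alternative.

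Genes were filtered with edgeR 4.0.16 (filterByExpr, 14020 kept), scaled by TMM and tested with its quasi-likelihood test without covariate, with Benjamini-Hochberg adjustment over all tested genes. The self-test on simulated counts was run first. CPM are TMM-scaled, and shares within a set use counts per exonic length. Alternatives were 2 other scalings, no filter, DESeq2 1.42.0, limma-voom and limma-trend (limma 3.58.1), unstranded counts, a replicate block, subtraction of the median of 51 neighbouring genes and leaving out each replicate.

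Members and gene lists were chosen with earlier results of these data known. Besides all members, up to 8 other BAF subunits and up to 4 genes of each list were named by size of change, if past the threshold and at a mean log2 CPM of 0 or more, together with the 3 nearest tested genes annotated as coding on each side of Bcl11a, the 3 genes most correlated with it and the 5 genes it is reported to repress. Paralogues of a set, unchanged counterparts and markers were named beyond that rule, after their values were seen. Replicate pairs differed beyond counting noise (chi-square per gene 3.78 to 30.5), so none was counted as a duplicate. Gene types come from GENCODE M21, matched by ID for 49326 genes. R 4.3.3 and Python 3.11.15 were used.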

Additional observations from a re-analysis of the deposited data

How the results depend on the processing

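Of 196 counts of calls under alternatives (14 results), 188 stayed within 1.5 times the value reported. Leaving out 1 library gave 1 to 2 higher members (1 without control replicate 2 or 3) and 1 to 2 higher INO80, SRCAP and TIP60 subunits (1 without Bcat1-KO replicate 3 or any 1 control replicate), a list that also had 1 higher with no filter on low counts and 2 lower with limma-trend on TPM. Of 120 shares, 118 moved by less than 1 SD. With unstranded counts the knockout minus control difference went from -20.7 to -22.9 percentage points for Smarcd2 and from -6.10 to -4.08 for Smarcd3. Of 728 tests of 52 named genes under alternatives, 692 kept their call and 0 reversed. After subtraction of the median of 51 neighbours, 22 of the 52 genes moved by less than the spread between replicates, 26 moved by more and 4 called genes changed sign, Smarcc2 to 0.16, Smarcb1 to 0.18, Ss18 to -0.15 and Ptbp1 to 0.0846, and the cause was not tested. Smarcc2, at an adjusted p = 0.0493 (edgeR), passed in 7 of 14 alternative tests. The labels do not say whether the shared replicate numbers pair the samples, and 3 libraries per group are too few to settle it. Same-numbered libraries had correlations of deviations of -0.05, -0.07 and 0.16, against -0.118 to 0.176 for other numbers. Only replicate 3 correlated best with its own number. The replicate block gave 8662 called genes against 8735, and changed the calls of 2 named genes, Smarcc2 (adjusted p = 0.0592) and Bcl6 (adjusted p = 0.0502).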

Other observations

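Smarcd3 lost many reads when strand was ignored. Its sense counts summed to 4709 in the knockout and 4943 in the control, whereas counting without strand gave 2725 and 2888. It also held 721, 738 and 810 antisense counts in the knockout libraries and 1147, 1123 and 948 in the control libraries, far more than any other member, of which none exceeded 89 in a library. These antisense reads were lower in each knockout library, as were the counts of Chpf2, which overlaps it on the other strand. Actl6a, which overlaps Mrpl47 on the other strand by 1577 bases, had 10048 and 8317 sense counts against 8874 and 7414 without strand. The log2 fold changes of these 2 genes were nearly equal by both ways of counting.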
